A study of Mus musculus with 3 samples.

Results

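The genes described here encode the CD4 and CD8 coreceptors and proteins by which immature thymocytes are recognised. They are Cd4, Cd8a, Cd8b1, Cd24a, Ptcra, Dntt, Cd1d1, Rag1, Rag2 and Nrgn, 10 of the 19518 genes measured in the series. Each was represented by the probe set that carried its symbol as the only annotated gene, and each of the 10 had 1 such probe set. The study asked which genes depend on PLZF (promyelocytic leukemia zinc finger), the transcription factor encoded by Zbtb16, in γδNKT cells, a γδ T cell subset with the properties of NKT cells. RNA was hybridised to 3 arrays of the type Affymetrix Mouse Gene 1.0 ST, 1 for each of the genotypes PLZF+/+, PLZF+/lu and PLZFlu/lu, where lu is the luxoid allele, a point mutation in the PLZF gene. The labels give thymic γδNKT cells from female C57BL/6 mice of 3 to 4 weeks. In the methods the groups are described further: all 3 also lacked Rag1 (Rag1-/-) and carried the Vγ1Vδ6.4 TCR transgenes, so that every T cell in them bore a receptor supplied as a transgene, and the cells were CD4+CD8α- thymocytes purified by sorting and then sorted again. Neither the number of mice behind each array nor the promoter of the transgenes is given in the sources used here.

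T cell precursors enter the thymus without CD4 and CD8, assemble antigen receptor genes with the Rag1 and Rag2 recombinase and the template-independent polymerase encoded by Dntt, and signal through the pre-TCR, of which Ptcra encodes the invariant chain. They then pass through a CD4+CD8+ stage, in which CD24 is abundant at the surface, and mature cells keep either CD4 or CD8 and lose CD24. CD1d, encoded by Cd1d1, presents lipids, and CD1d on CD4+CD8+ thymocytes selects iNKT cells.

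With 1 array per genotype no difference had a replicate check, no p-value was computed, and more than 2-fold was used as a rule of size. Zbtb16 gave 8796 with PLZF+/+, 6143 with PLZF+/lu and 2890 with PLZFlu/lu, but transcript of the point-mutated allele may still bind the probes, so this does not fully check the genotypes. The median intensity of an array was between 159.7 and 161.8. A level of 108, below which 95% of the values of 1033 olfactory receptor probe sets lay, is called the background level here. Values were identical on all 3 arrays for 46.8% of measured genes, and for 33.6% of the 11973 genes whose brightest value exceeded the background level, so an equal value is a common outcome in these files. Of 10 measured genes of T cell identity, all were above the background level on each array, and none differed by 1.5-fold between PLZF+/+ and PLZFlu/lu. The genes of the γδ receptor chains were not analysed here.

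Between PLZF+/+ and PLZFlu/lu cells, 6 of the 10 genes had a lower intensity in PLZF+/+, 1 a higher one and 3 an equal one. Cd8b1, which encodes the CD8β chain, was the gene past 2-fold, lower in PLZF+/+. Cd24a and Cd8a, which encodes CD8α, were lower by more than 1.5-fold, and Dntt, Rag1 and Cd4 by less. The higher gene was Nrgn, which encodes the calmodulin-binding protein neurogranin. The arrays are of bulk RNA, so fewer cells of a type and less RNA per cell cannot be told apart. Past 2-fold in either direction were 0.43% of all measured genes, and past 2-fold in this direction 0.159%, against 1 of 10 here. Lower in PLZF+/+ by more than 1.5-fold were 0.579% of all measured genes, against 3 of 10 here. Of all 19518 measured genes, 11973 exceeded the background level on at least 1 array, against 9 of the 10 here. The 10 genes were chosen with earlier results of these data known, so these shares are set side by side without a test. The median log2 difference, PLZF+/+ minus PLZFlu/lu, was -0.23 over the 10 genes and 0.00 over all measured genes. Rag2 lay below the background level on every array, and over the other 9 genes the median was -0.28.

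**Figure D1:**
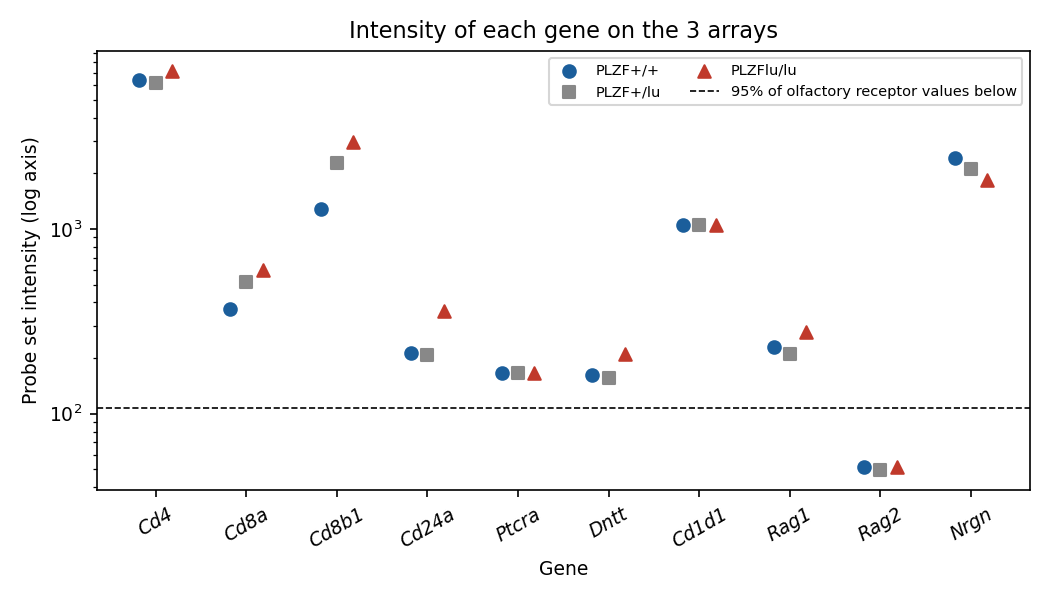
Probe set intensity on a log axis of the 10 genes, from 1 array for each genotype and without error bars, with PLZF+/+ drawn as circles, PLZF+/lu as squares and PLZFlu/lu as triangles. The triangle is the highest symbol for Cd4, Cd8a, Cd8b1, Cd24a, Dntt and Rag1, and the Rag2 symbols lie below the dashed line at 108; heights of different genes are not comparable, since each probe set binds with its own strength.

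Cd8b1 (probe set 10538979) gave intensities of 1290 with PLZF+/+, 2263 with PLZF+/lu and 2958 with PLZFlu/lu. The array without the luxoid allele was thus the lowest and the PLZF+/lu array lay between the others. Intensity was 2.29-fold lower in PLZF+/+ than in PLZFlu/lu cells, which is -1.20 on the log2 scale. At least as far below 0 were 15 of the 19518 measured genes, Cd8b1 among them. That is 0.0769% of all measured genes and 0.125% of those above the background level. Between PLZF+/+ and PLZF+/lu the log2 difference was -0.81, and between PLZF+/lu and PLZFlu/lu it was -0.39, so 67.7% of the whole step on the log2 scale lay between the arrays with 0 and 1 luxoid alleles.

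Cd8a (probe set 10538993) was at 369 with PLZF+/+, 519 with PLZF+/lu and 601 with PLZFlu/lu, in the same order as Cd8b1. PLZF+/+ minus PLZFlu/lu was -0.70 on the log2 scale, or 1.63-fold, which is below the 2-fold rule. At least as far below 0 were 80 measured genes, or 0.41% of them, and 0.651% of the genes above the background level. Of this step, 69.9% lay between PLZF+/+ and PLZF+/lu, close to the share for Cd8b1. CD8α was the surface protein that the cells were sorted not to carry, so the Cd8a level in all 3 arrays is that of cells chosen for the absence of the protein. CD8β reaches the surface of T cells together with CD8α. Of 8 genes that mark CD4+CD8+ thymocytes, 7 were measured, and their summed intensity was 2795 with PLZF+/+, 3933 with PLZF+/lu and 4905 with PLZFlu/lu. Without Cd8a and Cd8b1 the sum was 1136, 1151 and 1345. The part of cells of that stage in the differences of Cd8a and Cd8b1 was not tested.

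The CD8 genes are neighbours on chromosome 6 in the RefSeq annotation, with no gene between them, and the measured genes around them did not follow the same course. Rmnd5a, next to Cd8a, gave 1804, 1778 and 1844 from PLZF+/+ to PLZFlu/lu. Krcc1, the third gene before Cd8b1, was at 288, 266 and 326, or -0.17 for PLZF+/+ minus PLZFlu/lu on the log2 scale. Smyd1, Gm1070, Rnf103 and Chmp3 had equal values on all arrays, and Smyd1 lay below the background level.

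**Figure D2:**
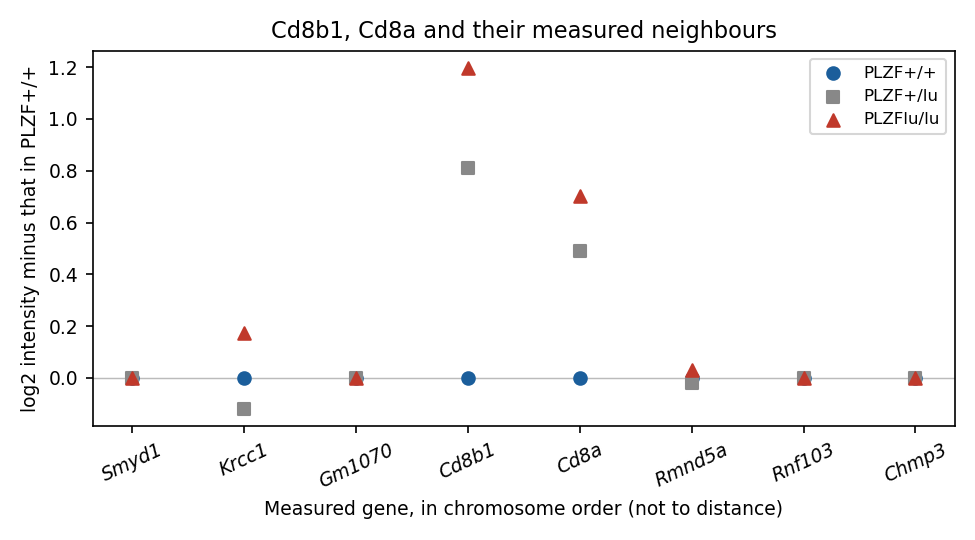
log2 intensity of Cd8b1, Cd8a and the measured genes beside them on chromosome 6, relative to PLZF+/+, with genes in chromosome order and not to distance. The triangles of PLZFlu/lu stand at 1.20 for Cd8b1 and 0.70 for Cd8a, with the squares of PLZF+/lu below them, while the other genes lie closer to 0.

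The promoter of Cd8a is shown with those of Dntt and Rag1, since these genes were lower in PLZF+/+ and lie on different chromosomes, so that the start regions of genes with the same direction can be compared. The sequences are from RefSeq (GRCm38.p6), run 5′ to 3′ along the gene's strand and cover 250 bases before to 50 after the start of the gene. That table held 6 of the 10 genes, and Cd4, Cd8b1, Cd24a and Cd1d1 were not among them. Capitals mark CANNTG, the E box that E proteins bind, and TGTGGT on either strand, the core that Runx proteins bind. The Rag1 sequence is the reference one and not that of the mutated allele.
Cd8a promoter, chr6:71373177-71373476, plus strand: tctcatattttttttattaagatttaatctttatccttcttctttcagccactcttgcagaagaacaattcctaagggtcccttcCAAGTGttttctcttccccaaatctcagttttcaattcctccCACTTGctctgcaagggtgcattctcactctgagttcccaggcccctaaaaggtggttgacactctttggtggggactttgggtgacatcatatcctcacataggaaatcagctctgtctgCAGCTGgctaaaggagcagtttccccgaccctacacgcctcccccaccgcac
Dntt promoter, chr19:41029025-41029324, plus strand: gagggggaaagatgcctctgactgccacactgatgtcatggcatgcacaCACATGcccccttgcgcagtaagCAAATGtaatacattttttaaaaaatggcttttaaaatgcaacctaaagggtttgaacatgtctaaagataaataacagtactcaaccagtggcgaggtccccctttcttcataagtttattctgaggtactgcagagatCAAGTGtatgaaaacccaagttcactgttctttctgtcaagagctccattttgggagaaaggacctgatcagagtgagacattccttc
Rag1 promoter, chr2:101649483-101649782, minus strand: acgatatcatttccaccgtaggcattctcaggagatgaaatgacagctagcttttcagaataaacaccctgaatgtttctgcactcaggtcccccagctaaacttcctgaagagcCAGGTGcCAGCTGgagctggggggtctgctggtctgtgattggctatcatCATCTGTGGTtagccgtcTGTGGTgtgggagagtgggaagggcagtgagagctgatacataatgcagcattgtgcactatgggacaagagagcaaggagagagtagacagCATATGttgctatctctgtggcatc
CANNTG was found 3 times in the Cd8a window, 3 times in that of Dntt and 4 times in that of Rag1. It was present in 72.3% of all 32851 promoters of this length in the table, with a median of 1 copy and 2 or more copies in 39.6%. TGTGGT was found 2 times in the Rag1 window, where 1 copy overlaps a CANNTG, and in neither of the other windows. Of all promoters, 16.8% had at least 1 copy and 1.81% had 2 or more. In Ptcra, whose intensity was equal on all arrays, CANNTG was found 3 times too. These matches describe the letters of the windows and no binding was measured.

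Cd24a (probe set 10362896), which encodes the heat-stable antigen lost as thymocytes mature, was at 213 with PLZF+/+, 207 with PLZF+/lu and 361 with PLZFlu/lu. Here PLZF+/lu lay beside PLZF+/+, and the PLZFlu/lu array stood apart from both. The log2 difference was -0.76 (1.69-fold) between PLZF+/+ and PLZFlu/lu and -0.80 (1.74-fold) between PLZF+/lu and PLZFlu/lu. It was 0.04 between PLZF+/+ and PLZF+/lu. At least as far below 0 between the outer genotypes were 70 measured genes, or 0.359%, and 0.568% of the genes above the background level.

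Dntt, the polymerase that adds nucleotides at receptor gene junctions, was at 162 with PLZF+/+, 157 with PLZF+/lu and 210 with PLZFlu/lu. Rag1, the catalytic subunit of the recombinase, was at 229, 211 and 278 in the same order. Both were highest in PLZFlu/lu and lowest in PLZF+/lu cells, with log2 differences of -0.38 and -0.28 between PLZF+/+ and PLZFlu/lu. A difference at least as far below 0 was seen for 1.36% of measured genes in the case of Dntt and for 2.06% in that of Rag1. Among the genes above the background level these shares were 2.01% and 2.92%. All mice were Rag1-/-, and the part of the gene lost in the mutant was not given in the sources used here, so the Rag1 intensity checks neither the mutation nor a functional transcript. Rag2, the partner subunit, was at 51.2, 49.5 and 51.2, below the background level on each array, and no fold is given for it.

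Cd4 was at 6401 with PLZF+/+, 6208 with PLZF+/lu and 7191 with PLZFlu/lu, on arrays of cells that were all sorted for CD4 at the surface. The log2 difference between PLZF+/+ and PLZFlu/lu was -0.17, close to the SD of 0.17 that this difference had over all measured genes, and 878 genes were at least as far below 0. Ptcra had the same intensity of 167 on each array, and Cd1d1 the same intensity of 1052. The neighbouring gene Cd1d2 was also equal on all arrays, at 391.

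Nrgn lay the other way, at 2417 with PLZF+/+, 2100 with PLZF+/lu and 1840 with PLZFlu/lu. The log2 difference was 0.39, or 1.31-fold, and 1.96% of measured genes were at least as far above 0. Among the genes above the background level that share was 3.08%. PLZF+/lu lay near the middle, with 51.5% of the step between PLZF+/+ and PLZF+/lu.

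The genes thus fell into different orders of the genotypes. PLZF+/lu lay strictly between the others for Cd8a, Cd8b1 and Nrgn. It was the lowest array, and PLZFlu/lu the highest, for Cd4, Cd24a, Dntt and Rag1, although PLZF+/lu and PLZF+/+ differed by at most 0.12 on the log2 scale in these 4 genes. This order held for 3.11% of the 11973 genes above the background level, and the order PLZF+/+, PLZF+/lu, PLZFlu/lu from low to high for 6.33%. Of the 108 genes above that level that were lower in PLZF+/+ than in PLZFlu/lu by more than 1.5-fold, 99 had PLZF+/lu between and 4 had PLZF+/lu lowest, with Cd8b1 and Cd8a among the 99 and Cd24a among the 4. The 108 were picked for a wide gap between the outer genotypes, which by itself makes a PLZF+/lu value between them likely. These counts therefore do not test an effect of the number of luxoid alleles.

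**Figure D3:**
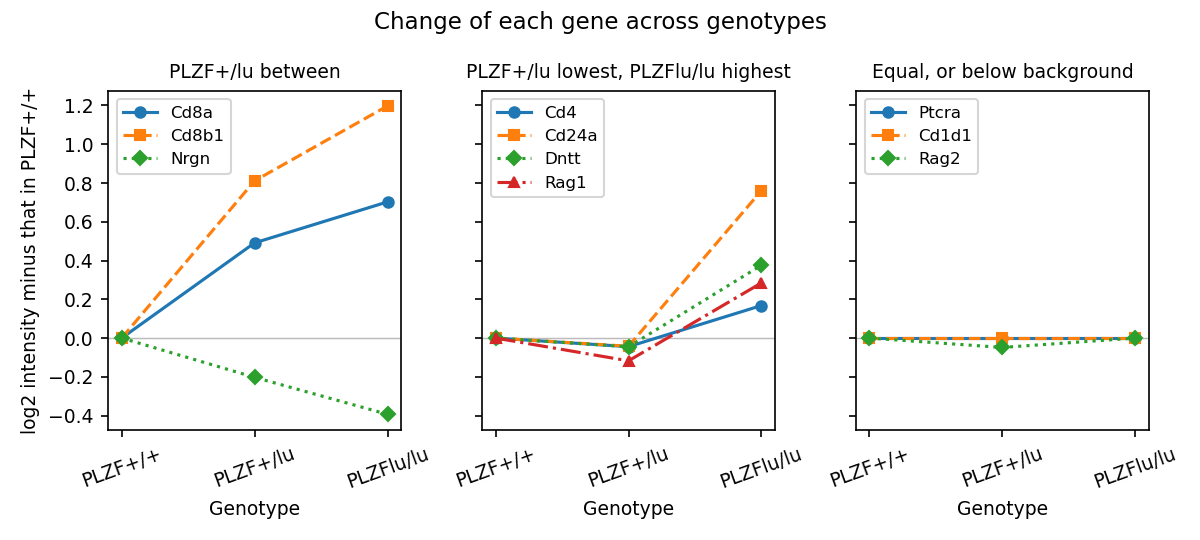
log2 intensity of each gene relative to PLZF+/+ across the 3 genotypes, 1 array each, in panels by the order of the genotypes. Cd8b1 and Cd8a are higher at both steps and reach 1.20 and 0.70, while Cd24a, Dntt, Rag1 and Cd4 lie near 0 in PLZF+/lu and above it in PLZFlu/lu.

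In the comparisons with PLZF+/lu, which share arrays with the first, none of the 10 genes was past 2-fold. Between PLZF+/+ and PLZF+/lu, 0.133% of all measured genes passed 2-fold, and between PLZF+/lu and PLZFlu/lu 0.123% did. Lower in PLZF+/+ than in PLZF+/lu by more than 1.5-fold was Cd8b1 (1.75-fold), as were 0.251% of all measured genes. Lower in PLZF+/lu than in PLZFlu/lu by more than 1.5-fold was Cd24a, as were 0.236% of all measured genes. The median log2 difference of the 10 genes was 0.04 for PLZF+/+ minus PLZF+/lu and -0.21 for PLZF+/lu minus PLZFlu/lu.

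**Figure D4:**
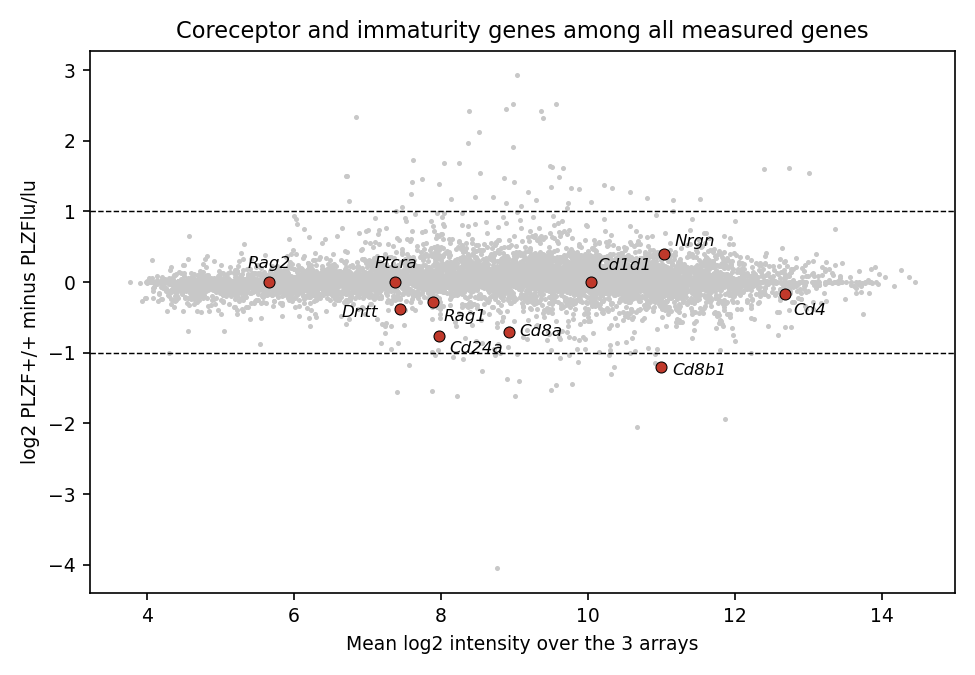
log2 difference between PLZF+/+ and PLZFlu/lu cells against the mean log2 intensity over the 3 arrays, with a grey point for each of 19518 measured genes and dashed lines at 2-fold. Of the 10 labelled genes, Cd8b1 lies beyond the lower line at -1.20, Cd24a and Cd8a lie at -0.76 and -0.70, and Nrgn lies above 0 at 0.39.

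The genes with values most like those of Cd8b1 were sought among 11964 other genes above the background level, by the distance between log2 values centred on each gene's mean over the 3 arrays. The closest was Abcb1b, a drug efflux transporter, at 119 with PLZF+/+, 213 with PLZF+/lu and 268 with PLZFlu/lu (distance 0.04). Stat4, the signal transducer of the IL-12 receptor, followed at 787, 1373 and 1933 (distance 0.08). Phxr4, Ldlrad4 and Gm7982 came next, with distances from 0.09 to 0.11 and log2 differences from -1.20 to -1.06. With 3 arrays many genes can share a course, and the distance describes these arrays only.

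Regulators of the Cd4 and Cd8 genes were examined as a list of 20 genes, of which 19 were measured and all 19 were above the background level. Past 2-fold was 1, Zbtb7b, which encodes ThPOK, the factor of the CD4 lineage that represses CD8 genes. It was at 335 with PLZF+/+, 179 with PLZF+/lu and 125 with PLZFlu/lu, 2.68-fold higher in PLZF+/+ and so in the order opposite to that of Cd8a and Cd8b1. Whether Zbtb7b has a part in the differences of Cd8a and Cd8b1 was not tested. In NKT cells of mice without TCR transgenes, the study saw no consistent change of Zbtb7b by PCR between PLZF+/+ and PLZFlu/lu. In all, 11 regulators lay above 0 for PLZF+/+ minus PLZFlu/lu, 3 below and 5 at 0, and their median was 0.05, against 0.00 over all measured genes. Runx3, the factor of the CD8 lineage that silences Cd4, was at 1087, 882 and 825, a log2 difference of 0.40. Gata3, needed for the CD4 lineage, was at 4297, 3260 and 3175, a log2 difference of 0.44. Runx3 and Gata3 were chosen after their values were seen.

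Other genes of the CD4+CD8+ stage did not pass 2-fold. Of 19 measured members of that list, 5 were higher in PLZF+/+, 9 lower and 5 equal, with a median of 0.00. Those furthest from 0 were Cd9, a tetraspanin, at 498, 351 and 351, Arpp21 at 529, 567 and 640, and Themis, a TCR signalling protein of positive selection, at 5612, 6532 and 6719. None of 18 genes of CD4-CD8- thymocytes and early progenitors passed 2-fold, and 11 of them were equal in PLZF+/+ and PLZFlu/lu. Only 11 of the 18 exceeded the background level. Of the equal genes, Hes1, Spi1, Mef2c, Flt3 and Cd34 lay below it on every array. Among the 18 genes Cd44, the adhesion receptor whose level rises with activation, was at 272, 247 and 204. Notch1 was at 2018, 2131 and 2237, and Dtx1, a regulator of Notch signalling, at 2575, 2682 and 2396. None of 14 measured recombination and end-joining genes passed 2-fold, and 7 were equal. Hmgb2, a DNA-bending cofactor of the recombinase, was at 1282, 1057 and 927, so that it lay opposite to Dntt and Rag1. The DNA damage response genes Trp53bp1 (758, 678 and 630) and H2ax (461, 382 and 435) were the next furthest from 0.

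Of 15 measured genes of maturation and positive selection, 4 were higher in PLZF+/+, 10 lower and 1 equal, with a median of -0.06. None passed 2-fold between PLZF+/+ and PLZFlu/lu. Slfn1, a Schlafen gene, was at 658, 1174 and 496, so that PLZF+/lu stood above both and differed from PLZFlu/lu by more than 2-fold. S1pr1, the receptor by which thymocytes leave the thymus, was at 5243, 6722 and 8144, 1.55-fold apart between PLZF+/+ and PLZFlu/lu and in the direction of Cd8b1. In the opposite direction lay Ccr4 and Egr1, with log2 differences of 0.54 and 0.52, against -0.64 for S1pr1. S1pr1, Ccr4 and Egr1 were chosen after their values were seen. Of the T cell identity genes, Cd2 was the furthest from 0, at 7166, 7752 and 9096, followed by Cd5 at 1972, 2057 and 2392 and the adaptor gene Lat at 6658, 6909 and 6989.

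**Figure D5:**
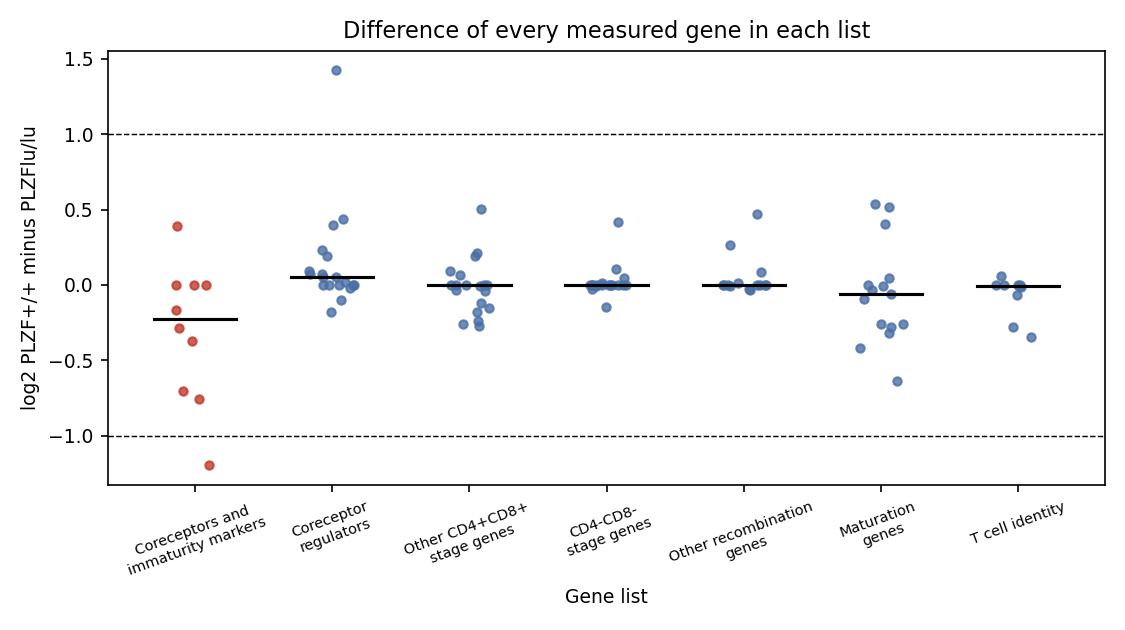
log2 difference between PLZF+/+ and PLZFlu/lu cells of every measured gene in 7 lists, with a point for each gene, a bar at the median and dashed lines at 2-fold. The coreceptor and immaturity genes have their median at -0.23 and Cd8b1 beyond the lower line, and the regulators have Zbtb7b beyond the upper line.

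Of 7 measured B cell markers 4 were above the background level on at least 1 array, namely Cd79b, Pax5, Blk and Cd22, while Cd79a, Ms4a1 and Ebf1 lay below it. The sum over all 7 was 2124, 1908 and 1880, most of it from Cd79b. Of 12 macrophage, granulocyte and dendritic cell markers 4 were above it, namely Cd68, Itgam, Siglech and S100a9. Among those below it were Lyz2, Csf1r, Cd14 and Adgre1, and the sum over all 12 was between 1245 and 1276. Of 9 NK cell markers 4 were above it, namely Gzma, Prf1, Klrd1 and Fcer1g. Among those below it were Ncr1 and Klrb1c, which encodes NK1.1, and the sum over all 9 was between 1142 and 1190. Of 4 measured erythroid markers 2 were above it, namely Epor and Slc4a1, and the sum over all 4 was between 456 and 474. Of 11 epithelial and stromal markers 6 were above it, namely Foxn1, Krt8, Ccl25, Col1a1, Col3a1 and Pecam1. The sum over all 11 was between 4198 and 4247, most of it from Pecam1, which was at 2643 on each array. No gene of these 5 lists differed by 1.5-fold between PLZF+/+ and PLZFlu/lu.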

How the data were processed

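RNA of CD4+CD8α- thymocytes was hybridised to 3 Affymetrix arrays, 1 per genotype. The authors processed the scans with ExpressionFileCreator, MultiplotPreprocess and Multiplot in GenePattern, removed normalization controls and deposited intensities on a linear scale. How background was corrected and probes were summarised and scaled was not given in the sources used here. In the submitters' processing notes the build is mm 8. All value columns were matched to a sample.

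Of 24800 probe sets, 21065 list exactly 1 gene, 1187 several and 2548 none, and 20983 of the first kind took their current symbol from the GRCm38.p6 RefSeq table by gene identifier. Where a gene had several probe sets, it was represented by that of highest mean log2 intensity. Intensities were compared as log2 differences, with values within 1e-06 taken as equal. The number of arrays limits the precision and no test was possible.

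The genes, the 11 further lists and the settings were chosen with earlier results of these data known. Named from a list are the genes past 2-fold in any comparison and above the background level, otherwise the 3 furthest from 0 between PLZF+/+ and PLZFlu/lu above it. In the marker lists of other cells the genes above the background level are named instead, with some of those below it, since none differed by 1.5-fold. For Cd8b1 the 5 genes closest in course are named. The neighbours of a gene were looked at after its values were seen. Alternatives were quantile normalization, median centring, cyclic loess, 32 added to each intensity, the mean over probe sets, dim genes left out, 1.5-fold and a reference averaged from PLZF+/+ and PLZF+/lu. The 2-fold rule was run on simulated data in which every added difference exceeded 2-fold. This checks the procedure only and does not test the differences on these arrays. Python 3.11.15, numpy 2.4.6, pandas 2.3.3, matplotlib 3.10.9, R 4.3.3 and limma 3.58.1 were used.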

Additional observations from a re-analysis of the deposited data

How the results depend on the processing

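Under quantile normalization, median centring, cyclic loess and 32 added to each intensity, 1 of the genes remained past 2-fold between PLZF+/+ and PLZFlu/lu, and it was Cd8b1, with log2 differences from -1.22 to -1.18. The arrays had similar medians beforehand, and under these settings the median difference over all measured genes stayed between -0.003 and 0.003. Such settings could thus move Cd8b1 little. Averaging probe sets and leaving out dim genes could not change the count of genes past 2-fold, since each gene has 1 probe set and Rag2 was the gene left out. No gene with a difference between these genotypes changed its direction under these settings or with PLZF+/+ averaged with PLZF+/lu. With a threshold of 1.5-fold, 3 genes were past it between PLZF+/+ and PLZFlu/lu, 1 between PLZF+/+ and PLZF+/lu and 1 between PLZF+/lu and PLZFlu/lu. When PLZF+/+ was replaced by its average with PLZF+/lu, 0 genes were past 2-fold, and the difference was -0.79 for Cd8b1 and -0.46 for Cd8a. PLZF+/lu lay between the others for both, so that average had to shrink their differences. Dntt, Rag1, Ptcra and Cd24a lay within a few-fold of the background level, where the signal over background limits what can be seen, and Rag2 lay below it. No paired analysis was possible because each genotype has 1 array, and for the same reason no array could be left out.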

Other observations

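Nrgn lies on chromosome 9, as does Zbtb16. Of the 3 measured genes on the side after Nrgn, Tbrg1 was at 3357 with PLZF+/+, 2801 with PLZF+/lu and 2496 with PLZFlu/lu, a log2 difference of 0.43 that is close to the 0.39 of Nrgn. Siae was at 1439, 1232 and 1167, with a log2 difference of 0.30, and Spa17 at 120, 120 and 114, close to the background level. On the side before Nrgn, Vsig2 and Esam were equal on all arrays, and Esam lay below the background level. Msantd2 was at 339, 338 and 339. These neighbours were looked at after the value of Nrgn was seen, and whether position on the chromosome has a part in them was not tested.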
